A study of Mus musculus with 6 samples.

Results

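The genes described here encode blood group antigens and other proteins on the surface of the red cell: Gypc, Rhag, Rhd, Kel, Ermap, Icam4, Xk, Cd47 and Tspo2. They were taken by name, and every Affymetrix Mouse430_2 probe set that the platform annotation pairs with 1 of these symbols alone was used. This gave 14 probe sets of 9 genes, out of 18193 genes measured. Cd47 has 5 probe sets, Xk has 2, and the other 7 genes have 1 each. RNA came from Ter119-positive cells of mouse fetal liver at embryonic day 14.5, and the Ter119 antibody marks the surface of red cell precursors as they mature. Each array holds 1 pool of 3 to 5 embryos of the same genotype. There were 3 wild type pools and 3 pools labelled STAT5 KO, called knockout here, after the transcription factor STAT5. Strain, allele and litters are not stated in the labels. The comparison asks which transcripts of fetal erythroid cells differ without STAT5, which the erythropoietin receptor activates.

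These proteins sit in a few assemblies of the red cell membrane. Rhag and Rhd form the core of the Rh complex, which carries gas and ammonia channel activity and is joined by Cd47 and the anion exchanger Slc4a1. Kel, a zinc endopeptidase, is linked to Xk, a lipid scramblase whose loss causes the McLeod syndrome of misshapen red cells and neuromuscular disease. Gypc encodes glycophorin C, which ties the membrane to its skeleton. Icam4 and Ermap are adhesion molecules of the immunoglobulin superfamily, and Icam4 binds integrins, also on the macrophages around which erythroblasts mature. Cd47 signals to the macrophage receptor Sirpa and holds back engulfment. Tspo2 is an erythroid relative of the cholesterol-binding protein Tspo. Genes of this kind are commonly switched on in erythroblasts by GATA1 and its partners.

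The 250 bases before the annotated transcript start are shown for 7 members. Rhag, Rhd, Kel, Ermap and Icam4 hold GATA letters there, and Xk and Cd47 each have 1 probe set with a larger difference between genotypes than any other member probe set. RefSeq promoter sequences of the build GRCm38.p6 matched 8 of the 9 members by symbol. Capitals mark the letters AGATAA or AGATAG, or the letters TGATAA or TGATAG, on either strand, and a match on the other strand is printed as its reverse complement, such as TTATCA. Each sequence runs 5′ to 3′ along the gene.
Rhag (chr17:40810899-40811148, + strand): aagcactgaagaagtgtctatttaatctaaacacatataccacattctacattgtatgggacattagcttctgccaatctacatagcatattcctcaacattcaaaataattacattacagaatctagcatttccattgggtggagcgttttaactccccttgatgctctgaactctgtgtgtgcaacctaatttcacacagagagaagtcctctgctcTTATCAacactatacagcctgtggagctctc
Rhd (chr4:134864286-134864535, + strand): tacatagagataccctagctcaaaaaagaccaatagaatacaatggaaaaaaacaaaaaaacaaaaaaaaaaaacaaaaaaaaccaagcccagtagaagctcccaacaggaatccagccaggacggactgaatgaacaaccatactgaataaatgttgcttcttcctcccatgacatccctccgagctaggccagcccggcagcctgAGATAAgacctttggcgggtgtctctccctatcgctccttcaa
Kel (chr6:41704326-41704575, - strand): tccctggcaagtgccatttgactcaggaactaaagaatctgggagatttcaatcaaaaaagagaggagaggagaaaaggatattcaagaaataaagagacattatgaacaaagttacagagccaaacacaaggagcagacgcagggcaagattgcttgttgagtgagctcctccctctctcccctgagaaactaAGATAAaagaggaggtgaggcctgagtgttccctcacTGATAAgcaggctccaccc
Ermap (chr4:119189996-119190245, - strand): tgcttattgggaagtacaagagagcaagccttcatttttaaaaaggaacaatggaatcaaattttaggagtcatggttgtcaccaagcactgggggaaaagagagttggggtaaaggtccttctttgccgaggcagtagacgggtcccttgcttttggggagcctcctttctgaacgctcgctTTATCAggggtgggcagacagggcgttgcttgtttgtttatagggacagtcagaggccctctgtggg
Icam4 (chr9:21029182-21029431, + strand): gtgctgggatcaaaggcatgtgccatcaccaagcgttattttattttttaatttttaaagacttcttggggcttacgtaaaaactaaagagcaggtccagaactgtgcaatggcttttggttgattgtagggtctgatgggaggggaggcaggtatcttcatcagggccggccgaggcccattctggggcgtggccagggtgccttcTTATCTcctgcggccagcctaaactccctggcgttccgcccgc
Xk (chrX:9272534-9272783, + strand): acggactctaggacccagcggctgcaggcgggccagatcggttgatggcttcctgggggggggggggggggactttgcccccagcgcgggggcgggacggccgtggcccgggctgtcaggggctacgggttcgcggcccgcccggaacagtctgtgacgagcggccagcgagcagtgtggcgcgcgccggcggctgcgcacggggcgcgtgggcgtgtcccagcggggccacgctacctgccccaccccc
Cd47 (chr16:49855404-49855653, + strand): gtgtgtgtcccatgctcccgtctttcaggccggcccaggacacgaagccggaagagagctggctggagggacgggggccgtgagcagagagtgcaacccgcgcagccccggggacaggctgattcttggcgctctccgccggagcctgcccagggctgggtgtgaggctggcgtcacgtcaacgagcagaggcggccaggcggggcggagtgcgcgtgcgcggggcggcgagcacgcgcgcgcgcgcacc

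GATA letters lay close to the start of 5 of the 8 members with a sequence, where 26.5% of all 32851 promoter windows of this length hold any of these forms. They lay 31 to 26 bases before the start in Rhag, 43 to 38 in Rhd and Icam4, and 67 to 62 in Ermap. Kel holds them at 56 to 51 and again at 19 to 14 bases before its start. Xk, Cd47 and Tspo2 hold none in this window, for Cd47 at either of its listed starts. The windows of Xk and Cd47 are also the richest in G and C, at 77.2% and 73.2%, where the other 6 hold between 39.2% and 52.4%. The palindrome TTCNNNGAA, which STAT5 can bind, was found in 0 of the 8, against 7.02% of all windows. A match is a run of letters and no measured site, and its absence from this window says nothing about sites elsewhere.

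**Figure D1:**
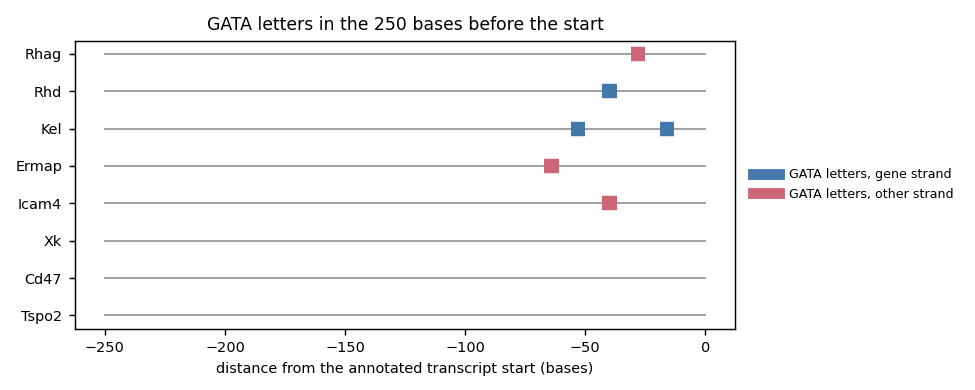
Positions of the GATA letters searched, in the 250 bases before the transcript start of 8 members, as distance in bases from the start; colour gives the strand. All 6 matches lie within 67 bases of the start, in Rhag, Rhd, Kel, Ermap and Icam4.

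The deposited values are linear intensities, called signals here. Array medians ran from 175.6 to 215.8, and the number of arrays limits the precision. A control level of 162.5 was set from 27 probe sets for bacterial transcripts, which mouse RNA lacks, as the 95th percentile of their signals, and all 14 member probe sets lay above it in both genotypes. All 4 probe sets of Stat5a and Stat5b were lower in every knockout pool than in any wild type pool. At 3 of them the knockout mean lay below the control level, and at the fourth, Stat5b 1422102_a_at, the knockout pools still read 204.9, 333.6 and 159.9, against 506.1 to 575.9 in wild type. The arrays differ in other ways. Xist, transcribed from the inactive X chromosome, read 599.6 in wild type replicate 3 and between 4030 and 12427 in the other 5 pools. The Y-linked gene Eif2s3y read 959.4 in that pool and between 18.6 and 373.8 in the others, so the pools differ in their share of male embryos. Wild type replicate 3 also had 16 probe sets more than 2-fold below every other array (among those whose mean elsewhere was over 11 in log2 signal), where the other arrays had 1 to 4. The highest signal of an array ran from 54356 to 78744, and among members Ermap came nearest to it, at up to 66.0%.

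Most of these genes had similar signals in both genotypes, and none passed the test. Differences are log2 signal in knockout minus wild type, with their standard error (SE) from limma, and the threshold is a Benjamini-Hochberg adjusted p of 0.05 over all 45037 probe sets. Of the 14 probe sets 0 passed, where the same fit called 0.0% of all probe sets, and the smallest adjusted p of a member was 0.608. With a mean-variance trend in limma, 0 of 14 passed as well (smallest adjusted p = 0.251), and that fit called 0.155% of all probe sets. Neither fit called any of the 4 probe sets of Stat5a and Stat5b, so not passing does not show that a signal was unchanged. At an unadjusted p under 0.05 there was 1 member probe set by limma, where 8.01% of all probe sets are found. There were 3 with the trend, against 9.97% of all, and 3 by the ANOVA that the study used, against 8.68% of all. Of the 14, 10 were lower in knockout, or 71.4%, against 56.2% of all probe sets. The median difference was -0.04, beside -0.07 for all probe sets. Median centring of the arrays left 6 of 14 lower. Groups did not overlap at 3 of the 14, or 21.4%, where this holds for 15.8% of all probe sets (6.84% with knockout higher and 8.95% with knockout lower), and for 19.2% of those above the control level in both genotypes. These 3 were Rhag and 1 of the Xk probe sets, lower in knockout, and 1 of the Cd47 probe sets, higher. The share without overlap depends on brightness. Among probe sets within 0.5 log2 of a member's mean it ran from 14.6% (Cd47 1459908_at, the dimmest) to 46.7% (Cd47 1449507_a_at). The study's own criterion, p under 0.05 without adjustment and over 1.5-fold, was met by 1 of the 14, the Xk probe set, and by 5.19% of all. Since bulk RNA was measured, fewer cells of a type and less RNA per cell cannot be told apart.

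**Figure D2:**
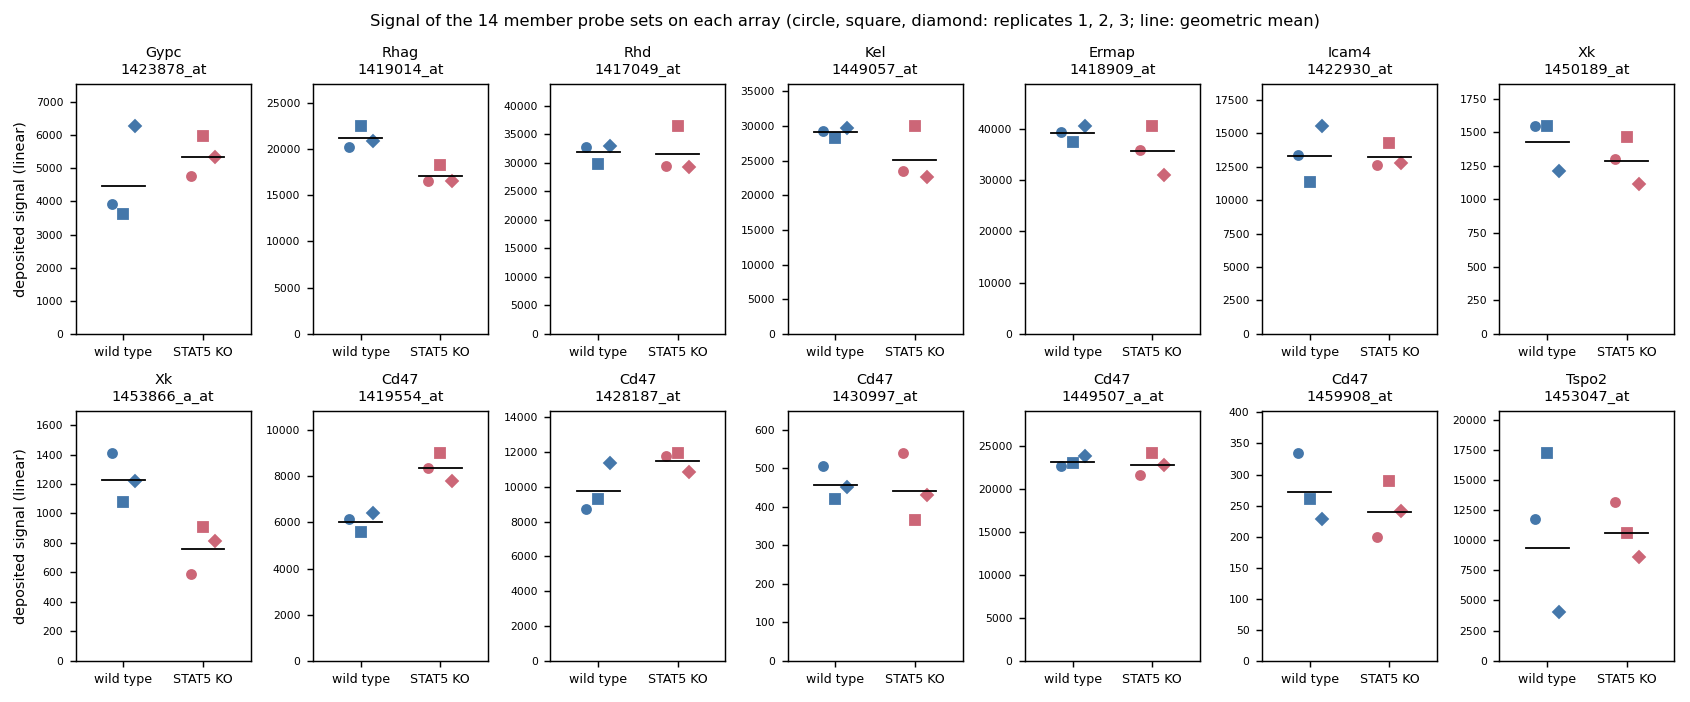
Deposited linear signal of each of the 14 member probe sets on every array, with each panel's axis starting at 0. Circles, squares and diamonds are replicates 1, 2 and 3, and lines are geometric means of 3 pools. Genotypes separate for Rhag, Xk 1453866_a_at and Cd47 1419554_at. Wild type replicate 3 stands apart for Tspo2 (4075). It is the highest for Gypc (6279), with knockout replicate 2 close to it (5978).

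Among the Rh complex genes, Rhag was slightly lower in all knockout pools and Rhd was not. Rhag encodes the glycoprotein without which Rh proteins fail to reach the membrane. Its signal was 20249, 22488 and 20835 in the wild type pools and 16552, 18280 and 16524 in the knockout pools. Every knockout pool was lower than every wild type pool, and the spread within a genotype was small, 1.11-fold in each. The difference was -0.31 (SE 0.19), which is 1.24-fold lower, with a 95% interval from -0.78 to 0.16 and an adjusted p of 0.701 in limma. With the trend the interval ran from -0.59 to -0.02 and the adjusted p was 0.463. Differences of this size are common at this brightness. Of the 282 probe sets within 0.5 log2 of the mean of Rhag, 43.6% had groups without overlap, 18.8% with knockout lower, and 19.9% had a difference as low. Leaving out any 1 array gave between -0.36 and -0.26. Rhd, the gene of the Rh antigen polypeptide itself, had 32880.0, 29749 and 33017 in wild type and 29394, 36483 and 29258 in knockout pools. These signals overlap, with the highest in knockout replicate 2. The difference was -0.01 (SE 0.21), with a 95% interval from 0.70-fold to 1.41-fold of wild type.

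Of Kel and Xk, whose proteins are joined in the membrane, only 1 of the Xk probe sets had groups without overlap. Kel had 29250, 28282 and 29663 in wild type pools, a range of 1.05-fold. In knockout pools it had 23493, 29991 and 22588. Replicates 1 and 3 lay below every wild type pool and replicate 2 above them all. The difference was -0.21 (SE 0.21, 95% interval -0.73 to 0.31), and -0.34 without knockout replicate 2. Xk was measured by a pair of probe sets that differed in size of change. At 1453866_a_at it had 1411, 1076 and 1220 in wild type and 590.2, 907.9 and 813.9 in knockout pools. All knockout pools were lower, replicate 1 the lowest. The difference was -0.70 (SE 0.26, 95% interval -1.32 to -0.07), which is 1.62-fold lower, with an adjusted p of 0.608 in limma and 0.284 with the trend. Of the 3946 probe sets of like brightness 1.82% had a difference as low. At 1450189_at the signals were 1547, 1546 and 1211 in wild type and 1303, 1464 and 1112 in knockout pools, which overlap. There the difference was -0.15 (SE 0.23). The ratio of the pair within an array (1450189_at over 1453866_a_at) differed by 0.55 on the log2 scale between genotypes. Its values overlap, at 0.13, 0.52 and -0.01 in wild type and 1.14, 0.69 and 0.45 in knockout pools (two-sided exact permutation test, p = 0.2). With the mean of both probe sets the difference of Xk was -0.42 (SE 0.20, adjusted p = 0.600, limma). Xk is an X-linked gene, and the pools differ in Xist as given above; the part of this in its values was not tested.

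Ermap, Icam4 and Gypc, the adhesion molecules and glycophorin C, had overlapping groups. Ermap, the carrier of the Scianna blood group, had 39508, 37446 and 40587 in wild type and 35877, 40616 and 31122 in knockout pools. Its difference was -0.14 (SE 0.21), with a 95% interval from 0.64-fold to 1.29-fold of wild type. As with Rhd and Kel, knockout replicate 2 was the highest of all 6 arrays. That array was also high for bright probe sets in general. Over the 364 probe sets with a mean log2 signal above 14, its median deviation from the wild type mean was 0.11, against -0.19 and -0.07 in knockout replicates 1 and 3. Without it, the groups no longer overlapped for Rhd, Kel and Ermap, all lower in knockout, with differences of -0.12, -0.34 and -0.23. Of all probe sets 26.5% have groups without overlap on those 5 arrays. At the brightness of Rhd, Kel and Ermap 40.5%, 46.1% and 34.2% of probe sets already do on all 6 arrays. With knockout replicate 3 left out instead of replicate 2, the differences of Rhd, Kel and Ermap were 0.04, -0.13 and -0.04. Icam4, which carries the LW blood group, had 13370.2, 11398 and 15557 in wild type and 12635, 14307 and 12773 in knockout pools. The knockout pools lay inside the wild type range, with a difference of -0.01 (SE 0.22, 95% interval -0.54 to 0.52). Its sign turned after quantile normalization and median centring.

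Gypc had 3926, 3628 and 6279 in wild type and 4769, 5978 and 5333 in knockout pools. Wild type replicate 3 was the highest of all, and the other wild type pools were the lowest. The difference was 0.26 (SE 0.28, 95% interval -0.44 to 0.95). It was 0.16, 0.10 and 0.50 without wild type replicate 1, 2 and 3. At the brightness of Gypc 30.8% of probe sets had groups without overlap on all 6 arrays. The groups of Gypc did not overlap without wild type replicate 3, which then holds for 31.7% of all probe sets. Signals of a pair of platelet genes were also high on that array, and with them the sum over megakaryocyte markers. The summed signal of 7 of these was 14475 there, against 4025 and 6207 in the other wild type pools and 4576 to 5838 in knockout pools. None of the 7 was at 0, and the von Willebrand factor gene Vwf alone lay below the control level. Most of it came from the platelet chemokine genes Pf4, at 7573 there and between 1491 and 3290.4 elsewhere, and Ppbp, at 3806 and between 202.3 and 616.3. Itga2b, the integrin chain of platelets, read 980.7 there and between 835.3 and 924.0 elsewhere. Their part in the signal of Gypc was not tested.

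Cd47, the signal that holds back engulfment by macrophages, had its knockout mean higher at 2 of its 5 probe sets and lower at 3, among them the brightest, and at 1 of the former the groups did not overlap. At 1419554_at it had 6140, 5588 and 6399 in wild type and 8357, 9012 and 7790 in knockout pools. All knockout pools were higher than all wild type pools, with a spread of at most 1.16-fold within a genotype. The difference was 0.47 (SE 0.20, 95% interval -0.0077 to 0.95), which is 1.39-fold. The adjusted p was 0.629 in limma and 0.251 with the trend, whose interval ran from 0.19 to 0.76. Among 665 probe sets of like brightness 7.22% had a difference as high, and 12.8% had all knockout above all wild type arrays. Leaving out any 1 array gave between 0.42 and 0.52. At 1428187_at the signals were 8737, 9298 and 11398 in wild type and 11749, 11949 and 10838 in knockout pools. Knockout replicate 3 fell inside the wild type range, and the difference was 0.24 (SE 0.21). At the brightest probe set, 1449507_a_at, the signals were 22666, 22980 and 23834 in wild type and 21596, 24201 and 22760 in knockout pools. These overlap, with a difference of -0.02 (SE 0.19, 95% interval -0.48 to 0.44). The dim probe sets 1430997_at and 1459908_at differed by -0.06 (SE 0.24) and -0.17 (SE 0.26), with signals between 199.2 and 539.4.

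The probe sets of Cd47 thus gave both directions, and their ratios within an array were compared after these values were seen. The log2 ratio of 1419554_at to 1449507_a_at was -1.88, -2.04 and -1.90 in wild type and -1.37, -1.43 and -1.55 in knockout pools. The genotypes did not overlap, and the ratio was higher by 0.49 in knockout pools. A two-sided exact permutation test gave p = 0.1, the smallest that 3 against 3 arrays allow. Of the 10 pairs of Cd47 probe sets, 4 had ratios without overlap. All 4 share 1419554_at, which was looked at because it differed, so they repeat 1 observation. The ratio of 1428187_at to 1449507_a_at was higher by 0.26 with overlapping groups. Where along the transcript each of them reads was not analysed here. With the mean of all 5 probe sets Cd47 differed by 0.09 (SE 0.17, adjusted p = 0.886, limma).

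**Figure D3:**
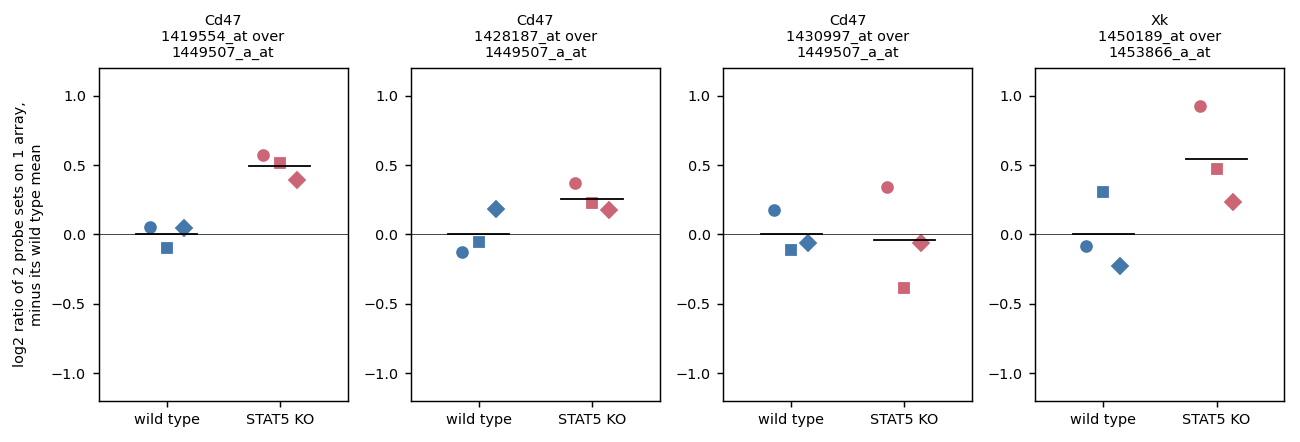
Log2 ratio of a pair of probe sets of the same gene on the same array, minus its mean over wild type, for Cd47 and Xk; circles, squares and diamonds are replicates 1, 2 and 3, and lines are means of 3 pools. The ratio of Cd47 1419554_at to 1449507_a_at is 0.49 higher in knockout with no overlap, and the other ratios shown overlap.

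Tspo2, the erythroid relative of the cholesterol-binding protein Tspo, varied more between wild type pools than between genotypes. Its signal was 11738, 17241 and 4075 in wild type and 13197, 10603 and 8578 in knockout pools. Wild type holds both the highest and the lowest array, 4.23-fold apart, where the knockout pools span 1.54-fold. The wild type range of 2.08 on the log2 scale was the largest of the 472 probe sets of like brightness, whose median range was 0.35. The low pool is wild type replicate 3, in which Xist was also low, and Tspo2 is among the 16 bright probe sets that were more than 2-fold below every other array there. The difference between genotypes was 0.18 (SE 0.56), with a 95% interval from 0.44-fold to 2.94-fold of wild type. Without wild type replicate 3 it turned to -0.42. Its better known relative Tspo had 5974, 4255 and 6554 in wild type and 3750, 5762 and 5798 in knockout pools at its brightest probe set, a difference of -0.14 (SE 0.29).

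**Figure D4:**
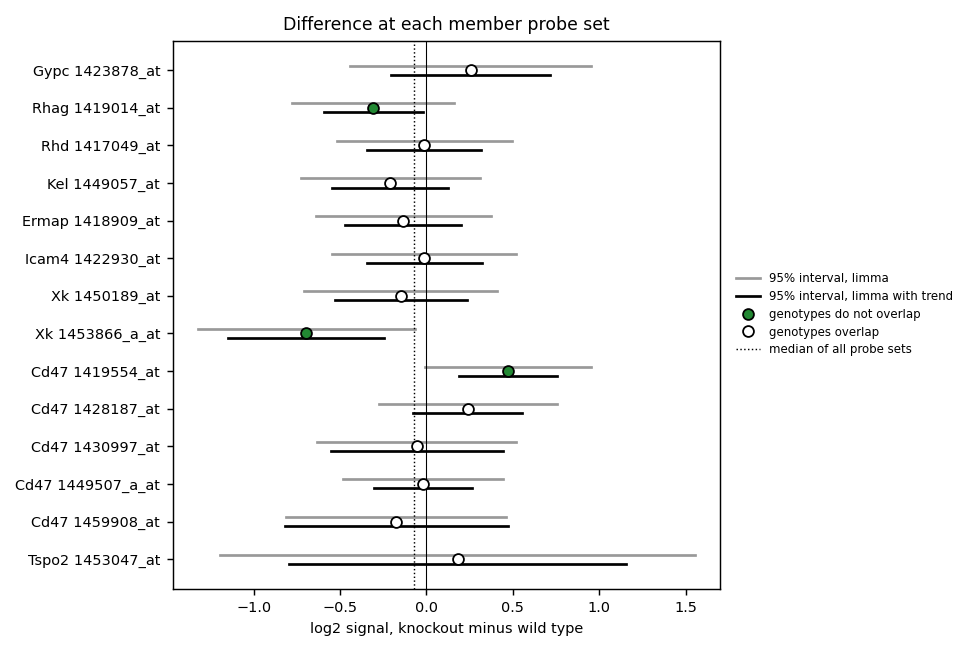
Log2 difference, knockout minus wild type, at each member probe set, with 95% intervals of limma without (grey) and with (black) a mean-variance trend; the dotted line is the median of all probe sets (-0.07). Filled points mark the 3 probe sets whose genotypes do not overlap, and the widest interval is that of Tspo2.

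Other blood group genes lay on both sides of 0, and the water channel gene Aqp1 had the largest difference among them. A list of 35 other blood group genes, measured by 73 probe sets, had 38 higher and 35 lower in knockout and a median difference of 0.01. Of the 73, limma called 0, with 12 at an unadjusted p under 0.05 (8.01% of all probe sets), and limma with the trend called 1, that of the water channel gene Aqp1, which carries the Colton blood group. Aqp1 had 2247, 2579 and 2838 in wild type and 13873, 20104 and 11016 in knockout pools, a difference of 2.52 (SE 0.21, adjusted p = 0.00489, limma with the trend). Groups did not overlap at 18 of the 73, or 24.7%, beside 15.8% of all, 11 of them higher and 7 lower in knockout. The study's criterion was met by 10, 7 higher and 3 lower, where 5.19% of all probe sets meet it.

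No partner of the Rh complex or of the skeleton below it passed the test. Of 16 probe sets of Slc4a1, Ank1, Epb42, Mpp1 and Vps13a, 11 were lower, beside 56.2% of all probe sets, with a median difference of -0.29, and limma called 0 with or without the trend. Groups did not overlap at 5, or 31.2%, all lower in knockout, beside 15.8% of all probe sets. Most of the 5 are about as bright as Icam4 or Rhag. At those levels 32.9% and 43.6% of probe sets do not overlap, 20.4% and 18.8% with knockout lower. Ank1 gave more than 1 of the 5. Another, Vps13a 1431327_at, lay below the control level, at 66.5 to 123.2 in wild type and 48.5 to 63.5 in knockout pools. Slc4a1, the anion exchanger and a member also of the blood group list, had 61707, 60890 and 51483 in wild type and 42735, 57543 and 49294 in knockout pools at its brightest probe set. These signals, at 78.4% or more of the highest on the array, overlap. At the dimmer 1431743_a_at it had 22832, 23565 and 20958 in wild type and 15952, 15328 and 9778 in knockout pools, which do not overlap. That difference was -0.75 (SE 0.19, adjusted p = 0.233, limma with the trend). Epb42, which links Slc4a1 to the skeleton, differed by -0.39 (SE 0.22) and Ank1, the ankyrin gene of red cells, by -0.36 (SE 0.21), both without overlap. Vps13a, the lipid transfer partner of Xk, had a difference of 0.0078 (SE 0.19) where it was brightest.

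Counter-receptors and relatives of the members passed no test either. Among 23 probe sets of the receptors for Cd47 and Icam4, 13 were higher and 10 lower in knockout (median 0.08), and limma called 0 with or without the trend. Itga4, an integrin subunit that binds Icam4 and is itself present on early erythroblasts, was higher without overlap at 3 of its 4 probe sets above the control level, by 0.39 to 0.52. Those 3 are about as bright as the Xk probe sets or Cd47 1419554_at, where 22.6% to 29.8% of probe sets do not overlap. Itgb1, the partner chain of Itga4, differed by 0.48 (SE 0.20) at 1 probe set and by -0.06 (SE 0.20) at its brightest. Sirpa, the receptor for Cd47, had differences of 0.18 (SE 0.21), -0.25 and -0.07 at its probe sets, the first at the brightest. Thbs1, a secreted ligand of Cd47, differed by -0.55 (SE 0.41) at the probe set above the control level in both genotypes. At the other, 1460302_at, it had 85.8, 215.1 and 909.7 in wild type and 68.5, 99.7 and 153.4 in knockout pools, which overlap. Among family relatives, Btn1a1, a butyrophilin like Ermap, differed by -0.62 (SE 0.24), and Ece1, an endopeptidase of the Kel family, by -0.11 (SE 0.25) at its bright probe set. At the Ece1 probe set 1434177_at the signals were 153.3, 453.4 and 374.9 in wild type and 137.9, 70.4 and 121.4 in knockout pools, the latter below the control level. Xkr5, of the Xk family, differed by 0.30 (SE 0.24). The Rh relatives Rhbg and Rhcg had mean log2 signals under the control level in each genotype, although Rhbg read 322.5, 183.3 and 209.6 on 3 of the 6 arrays. Of the 25 probe sets of relatives 16 were lower, with a median of -0.14, and limma called 0 with or without the trend.

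**Figure D5:**
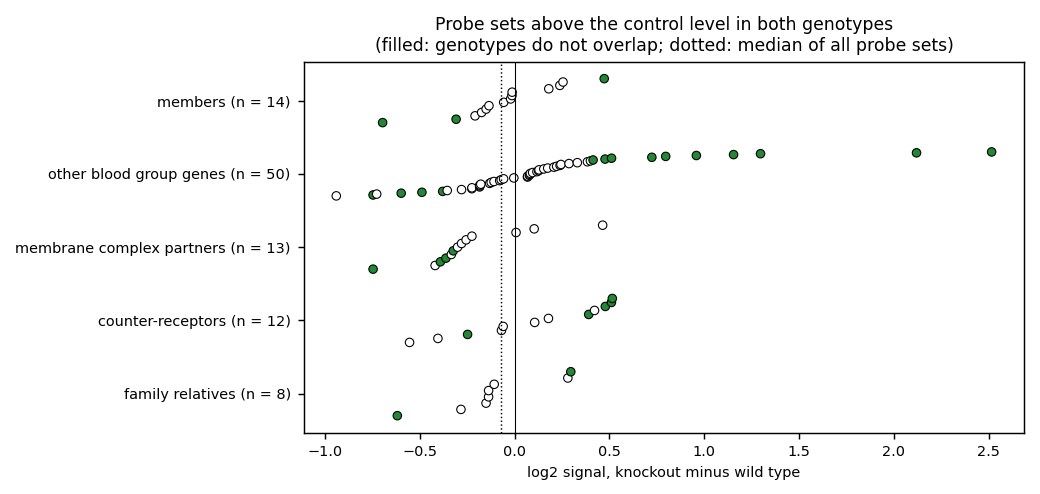
Log2 difference, knockout minus wild type, of every probe set above the control level in both genotypes, for the members and 4 lists of other genes; filled points have genotypes that do not overlap, and the dotted line is the median of all probe sets. Members lie between -0.70 and 0.47, and other blood group genes reach 2.52 (Aqp1).

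Among markers of maturation stage and of other cells, only the summed signals of progenitor and hepatocyte genes did not overlap between genotypes. The summed signal of 10 progenitor markers was 4671 to 5808 in wild type and 7408 to 9016 in knockout pools, without overlap. Of the 10, however, 6 were lower, and their median difference was -0.09. Cd34, Flt3 and Erg lay below the control level. Among the higher ones, Kit, the stem cell factor receptor gene, had 526.2, 414.8 and 209.4 in wild type and 1148, 781.9 and 568.7 in knockout pools. Myb and Cd44 were higher without overlap too, and Cd44 is also on the list of other blood group genes. For 11 late erythroid genes the sum was 365452 to 446952 in wild type and 307848 to 405399 in knockout pools, with 10 of 11 lower. Hepatocyte markers summed to 172895 to 300611 in wild type and 148641 to 160654 in knockout pools, with all 15 lower and none at 0. The sums of 10 endothelial and 11 macrophage markers overlapped. For endothelium they were 3199 to 5480 and 3039 to 3449, with 9 of 10 lower and Tek and Tie1 below the control level. For macrophages they were 17276 to 28278 and 22296 to 27743, with 6 of 11 lower and Cd163 below it. The sums of granulocyte and mast cell markers (2150 to 7738 in knockout and 4104 to 7357 in wild type pools) and of lymphoid markers (1039 to 1214 and 1086 to 1282) overlapped too, with 7 of 8 and 2 of 4 lower. No marker measured was at 0. The part of these shifts in the differences of Rhag, Xk and Cd47 was not tested.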

How the data were processed

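Biotin-labelled RNA of 6 pools was measured on Affymetrix Mouse430_2 arrays, per the labels' protocols. The authors deposited linear intensity values. RMA and Partek, without versions, are the tools in the submitters' processing notes. Leaving out the top and bottom 2% of values, the mean of every array is 500, a scaling whose making is not stated. Sample titles gave the groups and the replicate numbers.

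Log2 of the intensity of 45037 probe sets, without 64 controls, was fitted with limma 3.58.1 in R 4.3.3 (lmFit, eBayes, Benjamini-Hochberg), knockout against wild type, with no filter. The fit with a mean-variance trend is given beside it. The GEO platform annotation gave 34945 probe sets 1 symbol, 932 several and 9160 none. By Entrez ID 34741 matched RefSeq (GRCm38.p6), with 0 symbols changed. Permutation tests over samples were exact and two-sided. The members and lists were chosen with earlier results of these data known. Named genes were all members, Stat5a and Stat5b, fixed relatives, and from each list the genes past the threshold. Where a list had none, the 3 with the smallest p whose brighter genotype lay above the control level were named. A gene can thus enter by 1 genotype alone, as Ece1 1434177_at and Thbs1 1460302_at did by wild type. Genes of the closing section and the markers named were chosen after their values were seen. Scripts were tested on simulated data. Alternatives were the trend (also with robust estimation), the methods' ANOVA, quantile normalization, median centring, leaving out the dimmer 50% of probe sets, weights for arrays, a block for the replicate number, adding 32 to the intensity, and leaving out each array. Combinations with the trend and the ratios of probe sets were added after the data were seen.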

Additional observations from a re-analysis of the deposited data

How the results depend on the processing

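No member probe set passed the threshold under any of the alternatives run, and the smallest adjusted p of a member was 0.184 (limma with the trend after quantile normalization, Cd47 1419554_at). The number of all probe sets called, 0 in limma without the trend, was 70 with the trend and 69 with robust estimation added. It was 20 without the dimmer 50% of probe sets and 5 with 32 added. With the trend it was 64 after quantile normalization, 33 after median centring and 61 with the replicate block, and without 1 array it was 0 without the trend. With the trend it was then 7, 20 and 78 without wild type replicate 1, 2 and 3, and 18, 13 and 8 without knockout replicate 1, 2 and 3. The call in the list of other blood group genes (1 probe set, Aqp1) was made with the trend, alone or combined, and without the dimmer 50%. Over fits without 1 array it ran from 0, without the trend, to 1, with it. Median centring left 6 of 14 members lower and turned their median to 0.074; without 1 array 7 to 10 were lower and the median ran from -0.104 to -0.0093. Against these stands the median of all probe sets, which was -0.07 as deposited and 0.04 after median centring. Quantile normalization gave 5 member probe sets without overlap, with Kel and Cd47 1428187_at added, and fits without 1 array gave 3 to 6. Over all probe sets 15.7% did not overlap after quantile normalization and 24.4% to 31.7% without 1 array. Rhag, Xk 1453866_a_at and Cd47 1419554_at kept their direction and lack of overlap after quantile normalization and after median centring. The other alternatives run on single probe sets could not create an overlap, since they kept the order of the arrays or left 1 out. With the mean of all Cd47 probe sets the groups overlapped.

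Signs of small differences turned. Median centring gave 0.099 for Rhd, 0.10 for Icam4, 0.0557 for Cd47 1430997_at and 0.0923 for Cd47 1449507_a_at, and quantile normalization gave 0.0286 for Icam4. These hold with the trend too. The mean of its probe sets gave 0.092 for Cd47, against values below 0 at 3 of its 5. Without 1 array the values ran from -0.119 to 0.0403 for Rhd, -0.126 to 0.0985 for Icam4, -0.205 to 0.0758 for Cd47 1430997_at, -0.0627 to 0.0194 for Cd47 1449507_a_at and -0.42 to 0.62 for Tspo2. The cause was not tested. Same-numbered arrays do not deviate together (r = 0.02, 0.03 and 0.03 over all probe sets, and not every array correlates best with its own number). This shows no sign of pairing by replicate number, though a small shared effect could go unseen among so many dim probe sets. With the replicate block 0 member and 0 of all probe sets were called, as without it, and the smallest adjusted p of a member was 0.639.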

Other observations

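Further genes of the blood group list had groups without overlap, and those described here were picked after their values were seen. Groups did not overlap at 18 of the 73 probe sets of that list, or 24.7%, beside 15.8% of all. Emp3 (0.51), Abcc1 1452233_at (0.48) and Gcnt2 1438660_at (-0.60) were also without overlap and above the control level. So were probe sets of Abcc4, A4galt, B4galnt2 and Gcnt2 that lay below that level in at least 1 genotype. Cd44, the hyaluronan receptor that carries the Indian blood group and declines as erythroblasts mature, was higher in knockout pools at the 3 probe sets above the control level, by at least 0.80. Aqp3, a water and glycerol channel with the Gill blood group, was higher by 0.72 to 2.12 at the 3 probe sets above the control level in both genotypes. The probe set with the 2.12 had a wild type signal of 79.7 to 339.7. At the Aqp3 probe set below that level, 1447727_at, the difference was -0.21 with overlapping groups. Bsg, basigin, which carries the Ok blood group, had 25934, 25027 and 23703 in wild type and 15969, 20568 and 16965 in knockout pools, a difference of -0.49 (SE 0.21). Art4, the Dombrock antigen, differed by -0.38 (SE 0.20). Piezo1, a mechanosensitive ion channel, differed by 0.41 (SE 0.21). At the probe sets of Cd44, Aqp3, Bsg, Art4 and Piezo1 without overlap, limma with the trend gave adjusted p between 0.12 and 0.428, so none passed. The Duffy antigen gene Ackr1 (-0.08, SE 0.23) and the Junior antigen transporter Abcg2 (-0.18, SE 0.21) had overlapping groups.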
